A study of Homo sapiens with 21 samples.

Results

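The S100 genes described here are the 10 members S100A4, S100A6, S100A8, S100A9, S100A10, S100A11, S100A12, S100A13, S100P and S100B, chosen by name as the myeloid and broadly expressed genes of the family and matched to gene identifiers with the version removed. They are 10 of the 58174 gene identifiers measured, and all 10 had a symbol match. RNA was sequenced from OCI-AML5, a human acute myeloid leukemia cell line, in 21 libraries that form 7 groups of 3. Control cells were kept in DMSO, the vehicle, or exposed to UM171, a small molecule that expands human blood stem and progenitor cells in culture, for 6, 24, 48 or 72 h. Cells edited with guide RNAs against PROCR, the gene of the endothelial protein C receptor (EPCR), are called sgEPCR cells and were kept in DMSO or exposed to UM171 for 24 h. The labels give 500 nM for UM171, a dose that the study's legends state differently. The labels give 72 h for the control DMSO libraries and 24 h for the sgEPCR DMSO libraries, so culture time and genotype cannot be told apart in DMSO. By these labels the control UM171 groups at 6, 24 and 48 h have no DMSO libraries of their own time. Culture time and UM171 therefore cannot be told apart in their comparisons with DMSO, in the steps between times, or in the control arm of the interaction described below. The labels name no guide for the control cells, whereas the study's legends mark the wild-type cells of its EPCR comparison as sgAAVS1. The labels describe the sgEPCR cells as an edited clone that is EPCR null or knocked down, and the study describes 3 independent clones. No source used here ties a library to a clone or guide. Nothing in the labels says that the libraries of the control groups came from separate cultures, so p-values measure the spread between these libraries, which may be technical.

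S100 proteins are small proteins with a pair of EF-hands, the helix-loop-helix fold that binds calcium, and most work as dimers that change shape and bind other proteins when calcium rises. Inside the cell they act on the cytoskeleton, on annexins and on membrane traffic. Some are also released and bind receptors such as RAGE (the product of AGER) and TLR4. In the myeloid lineage S100A8, S100A9 and S100A12 are abundant proteins of neutrophils and monocytes, whereas S100A4, S100A6, S100A10 and S100A11 are found in many cell types.

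Of the 10 members, 8 lie on chromosome 1 within 1.648 Mb (GRCh38, 151982915 to 153631360), where S100A10 and S100A11 form the outer end and the other 6 lie together. S100P lies on chromosome 4 (6693878 to 6697170, + strand) and S100B on chromosome 21 (46598604 to 46605208, - strand). The sequences upstream of 4 members are shown because S100A10, S100A11 and S100A6 changed together in the sgEPCR cells while S100P followed a course of its own. Each is the 250 bases before a RefSeq start of GRCh38.p14, read 5′ to 3′ on the gene's strand, at chr1:151993860-151994109 (- strand) for S100A10, chr1:152037005-152037254 (- strand) for S100A11, chr1:153535992-153536241 (- strand) for S100A6 and chr4:6693628-6693877 (+ strand) for S100P. Capitals mark matches to TTNNGNAA on either strand, the letters searched for C/EBP, a family of myeloid transcription factors.
S100A10: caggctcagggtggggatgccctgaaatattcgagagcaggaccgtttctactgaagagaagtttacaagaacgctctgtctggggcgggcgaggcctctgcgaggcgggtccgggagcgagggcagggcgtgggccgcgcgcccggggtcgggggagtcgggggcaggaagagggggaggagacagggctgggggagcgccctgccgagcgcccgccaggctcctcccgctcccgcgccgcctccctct
S100A11: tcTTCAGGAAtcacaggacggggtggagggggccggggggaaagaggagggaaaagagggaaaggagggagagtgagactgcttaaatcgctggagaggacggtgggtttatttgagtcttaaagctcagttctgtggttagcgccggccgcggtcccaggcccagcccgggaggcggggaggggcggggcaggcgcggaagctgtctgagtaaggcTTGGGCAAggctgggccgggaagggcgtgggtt
S100A6: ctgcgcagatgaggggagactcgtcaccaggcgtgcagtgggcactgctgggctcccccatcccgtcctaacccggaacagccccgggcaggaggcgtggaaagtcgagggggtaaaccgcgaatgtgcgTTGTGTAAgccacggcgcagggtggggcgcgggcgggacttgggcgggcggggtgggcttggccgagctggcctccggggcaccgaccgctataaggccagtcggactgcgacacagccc
S100P: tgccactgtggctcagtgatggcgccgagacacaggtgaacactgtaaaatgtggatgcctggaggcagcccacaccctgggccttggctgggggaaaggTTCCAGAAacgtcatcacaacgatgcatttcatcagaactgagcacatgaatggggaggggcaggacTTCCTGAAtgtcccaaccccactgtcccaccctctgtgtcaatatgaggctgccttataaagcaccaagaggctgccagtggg
S100A11 held 2 matches, starting 248 and 33 bases before the start, S100A6 held 1 at 120 bases, S100P held 2 at 150 and 83 bases, and S100A10 held 0. Over windows from 250 bases before to 50 after the start, the letters occurred in 36.8% of 35116 RefSeq windows and in 9 of the 13 windows of the 9 members with an entry. In the same windows the AP-1 letters TGANTCA occurred in 7.71% of all and in 1 of 13 (S100A12), the PU.1 letters GAGGAA in 27.9% of all and in 4 of 13 (S100A8, S100A9 and S100P), and the NF-kB motif in 5.91% of all and in 0 of 13. Both strands were searched for each motif, TTNNGNAA can hold GAGGAA so that 1 stretch can match both, and a match describes these letters only. The windows of S100A8 overlap, so the same C/EBP match and the same PU.1 match there are counted more than once.

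Library totals ranged from 24.3 to 51.5 M counts. In sgEPCR DMSO replicate 1 and sgEPCR UM171 replicate 2, 35.9% and 32.2% of the counts came from mitochondrially encoded genes, against 7.73% to 13.5% in the other 19 libraries. Both stand apart from their groups in the results that follow, and sgEPCR results are given with and without them. PROCR itself was at 3.37, 4.30 and 3.38 TPM (the length-scaled share of transcripts) in DMSO and 48.5, 48.5 and 48.5 TPM in control cells after 24 h of UM171. In sgEPCR cells it was at 2.30, 4.53 and 3.93 TPM in DMSO and at 8.94, 4.23 and 8.41 TPM in UM171. All 8 myeloid markers examined, among them CD33, PTPRC and CSF3R, averaged over 1 TPM, and their summed level lay between 769 and 2621 TPM. The erythroid and epithelial lists had 5 of 5 markers under 1 TPM in every library. The summed level of the T cell list was 6.85 to 7.43 TPM in DMSO and 30.5 to 34.3 TPM at 72 h (2.87 to 71.1 TPM over all libraries), carried by CD3D and TRAC, with CD3E, CD3G and CD2 under 1 TPM throughout. The summed level of the B cell list was 9.48 to 10.5 TPM in DMSO, 37.5 to 43.4 TPM at 48 h and 23.5 to 26.5 TPM at 72 h (6.26 to 43.4 TPM over all libraries). It was carried by CD79A, which rose by 1.51, 2.03 and 1.09 on the log2 scale at 24, 48 and 72 h by edgeR, with MS4A1 and PAX5 under 1 TPM throughout. That of the megakaryocyte list was at most 1.62 TPM in DMSO and 19.2 to 23.7 TPM at 72 h, with PF4, PPBP and GP9 under 1 TPM throughout, and that of the stromal list was 0.14 to 0.31 TPM and 2.53 to 3.16 TPM, with DCN, LUM and COL1A2 under 1 TPM throughout. Some markers of these lists were nearly absent in DMSO, such as PAX5 (0 counts in each library), COL1A1 (0 to 2) and CD79B (0 to 5). They entered the tests through UM171 groups where they were higher, so no tally of the lists is given. TRAC, CD79A and ITGA2B had at least 53 counts in every DMSO library. Each passed the limits given below as a rise at 48 h and at 72 h, where 16.4% and 20.8% of all genes passed in either direction. The part of these levels in the results was not tested. As these are bulk libraries, fewer cells that express a gene and less RNA per cell cannot be told apart.

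By length-scaled level the members fell into a high, a low and a nearly silent class. S100A11 averaged 606 TPM over the 21 libraries and ranked 183 among all genes, S100A4 averaged 542 TPM (rank 204), S100A10 181 TPM (rank 660) and S100A6 75.8 TPM (rank 1816). S100P averaged 7.34 TPM and S100A13 4.83 TPM. S100A9 averaged 0.695 TPM and S100A8 0.299 TPM, S100B had 19 counts in all 21 libraries together (0 to 4 per library) and S100A12, the calgranulin released by granulocytes, had a single count. S100A4 and S100A11 alone made up 75.6% ± 0.710 (SD, n = 3) of the summed level of the 10 members in DMSO. The pair of calprotectin genes, S100A8 and S100A9, which are among the defining transcripts of mature neutrophils and monocytes, were thus near the limit of detection in these leukemia cells, and so was S100B, best known from astrocytes.

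**Figure D1:**
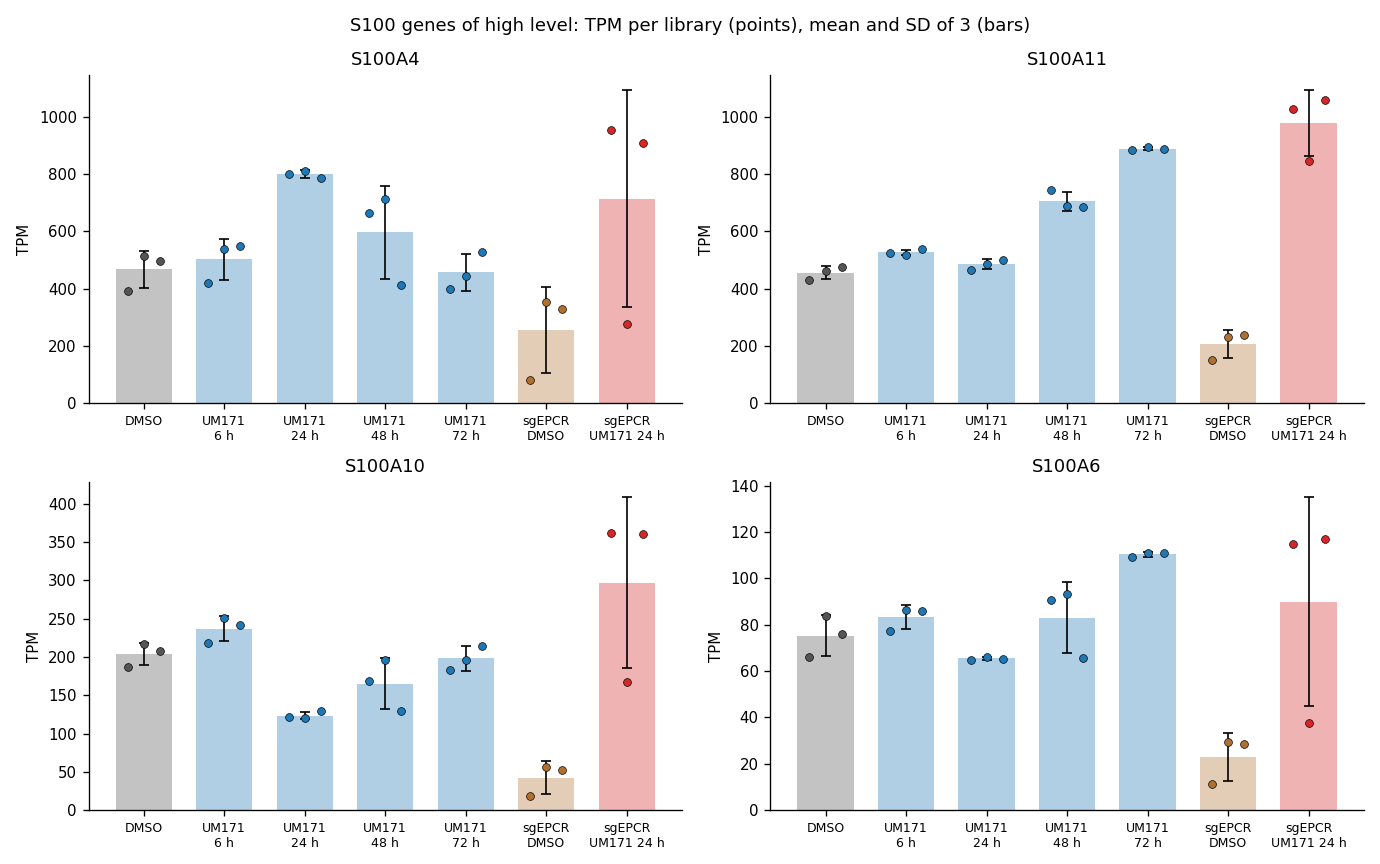
TPM of S100A4, S100A11, S100A10 and S100A6 (y axes, linear, from 0) in the 7 groups (x axes), with points for the 3 libraries, bars for the mean and error bars for the SD. S100A11 climbed to 888 TPM at 72 h, S100A10 had its lowest control level of 124 TPM at 24 h, and in the sgEPCR groups 1 library each (DMSO replicate 1, UM171 replicate 2) lay well under the other 2.

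Differences were tested with edgeR's quasi-likelihood test on rounded expected counts. A gene passed the study's limits where it changed by more than 2-fold with an adjusted p (Benjamini-Hochberg) below 0.0001, and a gene is also said to have risen or fallen at an adjusted p under 0.05. Of the 10 members, 7 entered the tests, and S100A8, S100A12 and S100B were removed by the filter on low counts. S100A9 entered only through the groups where it was higher, so it had to differ. Its counts are therefore given as a description, and the counts of members that passed cover the other 6. Fits of S100A9 appear only for the run without this filter and in the closing part on processing, where they are named. The comparisons of 6, 24, 48 and 72 h share the DMSO libraries, which are labelled 72 h.

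S100P, which binds ezrin and is released to act on RAGE, had the widest course of the members in control cells. It was at 8.65, 8.29 and 7.59 TPM in DMSO and at 9.12, 11.04 and 6.60 TPM at 6 h. At 24 h it was at 1.30, 2.39 and 1.26 TPM and at 48 h at 1.49, 0.50 and 0.57 TPM. At 72 h it was at 26.4, 29.6 and 31.7 TPM. The 24 and 48 h libraries all lay under the DMSO libraries and the 72 h libraries all lay over them, while the DMSO and 6 h libraries overlapped. S100P fell by 2.77 on the log2 scale at 24 h (SE 0.20, adjusted p = 1.9e-09, edgeR) and by 2.88 at 48 h (SE 0.21, adjusted p = 1.6e-09), and rose by 1.59 at 72 h (SE 0.14, adjusted p = 2.1e-08). From 48 to 72 h the rise was 22.1-fold (log2 4.47, SE 0.19, adjusted p = 1.6e-11, edgeR), from 10 to 32 counts per library to 351 to 437. From 6 to 24 h it fell by 2.53 (SE 0.21, adjusted p = 1.1e-08, edgeR). From 24 to 48 h the difference of -0.11 (SE 0.28, adjusted p = 0.77, edgeR) did not pass.

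**Figure D2:**
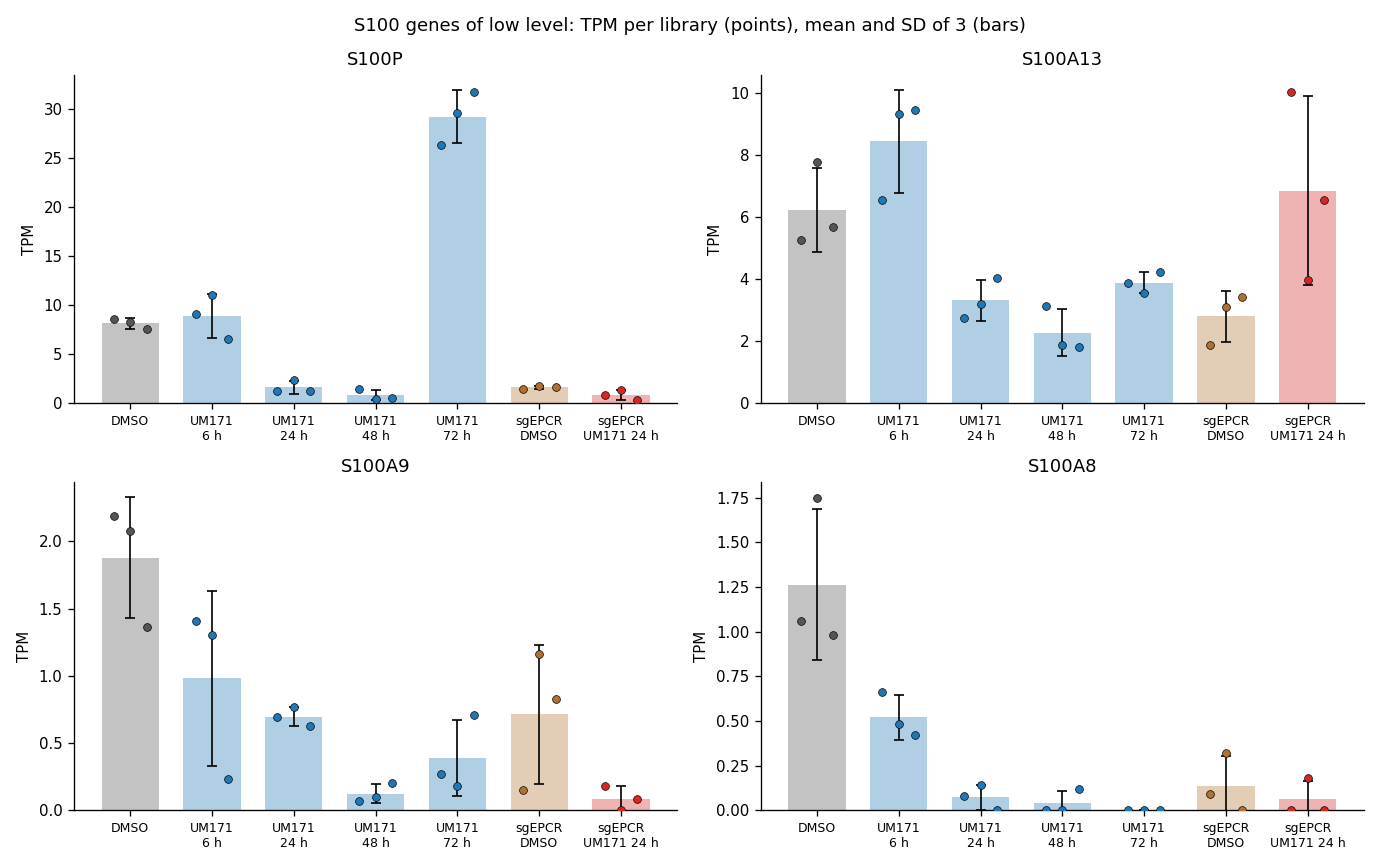
TPM of S100P, S100A13, S100A9 and S100A8 (y axes, linear, from 0, each with its own scale) in the 7 groups (x axes), with points for the 3 libraries, bars for the mean and error bars for the SD. S100P was at 29.2 ± 2.67 TPM at 72 h and under 12 TPM in every library of the other groups, and S100A8 was at 0 in the 3 libraries at 72 h.

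S100A11, a partner of annexin A1 found in many cell types, rose late. It was at 430, 462 and 477 TPM in DMSO, 743, 689 and 684 TPM at 48 h, and 884, 894 and 886 TPM at 72 h, without overlap between these groups. The change was 0.66 at 48 h (log2, SE 0.05, adjusted p = 4.3e-09, edgeR) and 0.89 at 72 h (1.85-fold, SE 0.05, adjusted p = 6.0e-11), both under 2-fold, and 0.05 at 24 h (SE 0.05, adjusted p = 0.40). The step from 24 to 48 h was 0.61 (SE 0.05, adjusted p = 9.1e-08, edgeR). S100A6, or calcyclin, followed with a smaller change: it fell by 0.23 at 24 h (SE 0.07, adjusted p = 0.0072, edgeR) and rose by 0.48 at 72 h (SE 0.07, adjusted p = 6.3e-06), where its libraries were at 109, 111 and 111 TPM against 66.2, 83.6 and 76.2 TPM in DMSO.

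S100A10, also called p11, is the S100 protein that lost calcium binding and holds annexin A2 at the membrane. It was at 188, 217 and 208 TPM in DMSO, 219, 251 and 241 TPM at 6 h, 121, 120 and 129 TPM at 24 h, 169, 197 and 130 TPM at 48 h, and 184, 196 and 215 TPM at 72 h. The 24 h libraries lay under those of the other 4 control groups. S100A10 fell by 0.79 on the log2 scale at 24 h (0.577-fold, SE 0.06, adjusted p = 1.3e-09, edgeR) and was less changed at 48 h, at -0.27 (SE 0.06, adjusted p = 3.5e-04), and the 72 h difference of -0.12 (SE 0.05, adjusted p = 0.059) did not pass. It rose by 0.53 from 24 to 48 h (SE 0.06, adjusted p = 1.2e-06, edgeR).

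S100A4, which binds nonmuscle myosin and is linked to cell motility, moved the other way at 24 h. Its libraries were at 392, 513 and 496 TPM in DMSO and at 801, 811 and 787 TPM at 24 h, without overlap. It rose by 0.74 at 24 h (1.67-fold, SE 0.12, adjusted p = 2.3e-05, edgeR) and by 0.37 at 48 h (SE 0.12, adjusted p = 0.0089), where its libraries spread from 413 to 714 TPM, and at 72 h it differed from DMSO by -0.10 (SE 0.12, adjusted p = 0.44). The ratio of S100A4 to S100A11 was 1.02 ± 0.101 in DMSO, 1.65 ± 0.0760 at 24 h and 0.514 ± 0.0742 at 72 h (SD, n = 3), so the more abundant of these members changed during the exposure.

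S100A13, which takes part in the release of FGF1, was at 5.26, 7.78 and 5.68 TPM in DMSO. It rose by 0.45 at 6 h (SE 0.15, adjusted p = 0.015, edgeR) and fell by 0.58 at 24 h (SE 0.16, adjusted p = 0.0037) and by 0.86 at 48 h (SE 0.17, adjusted p = 1.9e-04), where it was at 3.15, 1.89 and 1.81 TPM. From 6 to 24 h it fell by 1.04 (SE 0.16, adjusted p = 1.7e-05, edgeR), past the study's limits. That call was lost without any 1 of 4 libraries (replicates 1 and 2 at 24 h, replicates 2 and 3 at 6 h), with changes of -1.14 to -0.92 over all 15 libraries left out in turn.

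S100A8 and S100A9, which pair as calprotectin, had few counts. S100A9 had 25, 23 and 17 counts in DMSO, 18, 13 and 2 at 6 h, 10, 13 and 5 at 24 h, 1, 1 and 2 at 48 h, and 3, 2 and 9 at 72 h. Every library at 24, 48 and 72 h had fewer counts than every DMSO library. S100A8 had 10, 17 and 11 counts in DMSO, 7, 4 and 3 at 6 h, 1, 2 and 0 at 24 h, 0, 0 and 1 at 48 h, and 0, 0 and 0 at 72 h. As a share of the pooled library totals, S100A8 was at least 12.5-fold lower at 72 h than in DMSO, with 3 counts over the group as the floor. Such floors cover counting error only. When the filter on low counts was dropped, so that no group decided which genes were tested, S100A8 passed the study's limits by edgeR at 24, 48 and 72 h and S100A9 at 48 and 72 h, each lower than in DMSO. That run called 2746, 3188 and 3938 of 30677 genes at 24, 48 and 72 h, in either direction.

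The members that passed are set beside the share of all genes that did, with no test of the difference. At 6 h 0 of the 6 members passed the study's limits by edgeR, DESeq2 or limma (1 had an unadjusted p under 0.05 by edgeR), against 7.03% of all genes. By edgeR S100P alone passed them at 24 h (1 of 6, against 13.7%), at 48 h (1 of 6, against 16.4%) and at 72 h (1 of 6, against 20.8%). Limma called 2 of 6 at 48 h, and 1638 of 16575 genes. For the steps, 2 of 6 passed from 6 to 24 h (S100P and S100A13) against 10.0%, 0 of 6 from 24 to 48 h by the same 3 tools (4 at an unadjusted p under 0.05 by edgeR) against 2.85%, and 1 of 6 from 48 to 72 h (S100P) against 3.35%. At an adjusted p under 0.05 the members were 1 of 6 at 6 h against 62.1% of all genes, 5 of 6 at 24 h against 69.7%, 6 of 6 at 48 h against 72.1% and 3 of 6 at 72 h against 75.6%. By this rule they were 5 of 6 from 6 to 24 h against 67.1%, 4 of 6 from 24 to 48 h against 45.7%, and 6 of 6 from 48 to 72 h against 57.3%. The median change of the 6 members was 0.0082, -0.41, -0.05 and 0.19 at 6, 24, 48 and 72 h, against 0.02, -0.0076, -0.0049 and 0.02 over all genes tested.

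**Figure D3:**
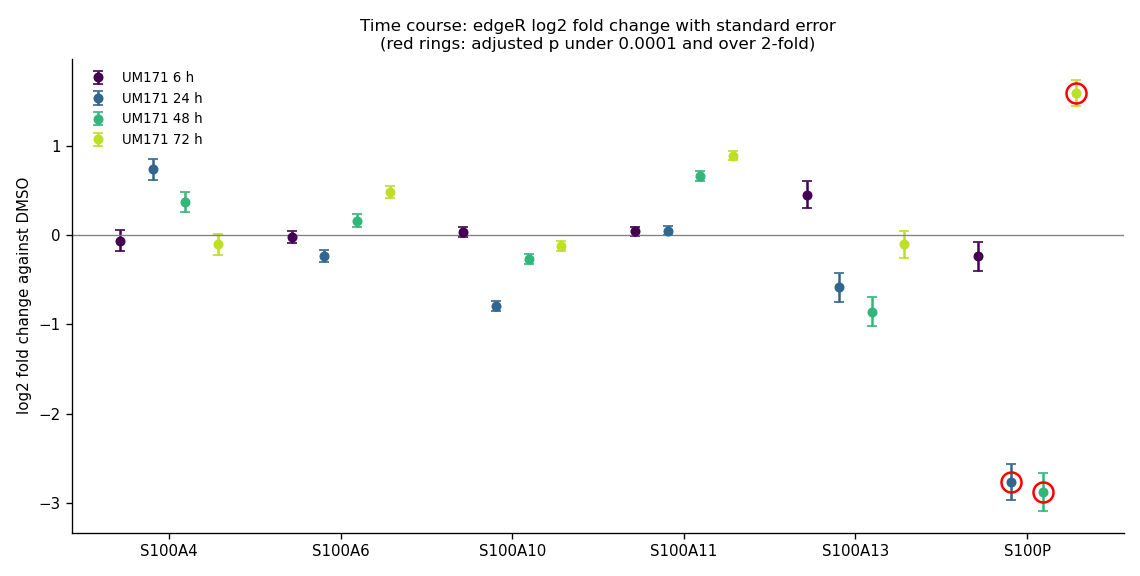
The log2 fold change against DMSO (y axis) of the 6 members (x axis; S100A9 left out) after 6, 24, 48 and 72 h of UM171, as points with standard errors from edgeR, with red rings where the study's limits were passed. S100P falls by 2.77 and 2.88 at 24 and 48 h and lies at 1.59 at 72 h, while S100A11 climbs to 0.89.

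In DMSO 4 of the 6 members were lower in sgEPCR than in control cells. S100A10 was at 18.7, 56.7 and 52.8 TPM in sgEPCR cells, all under the control range of 188 to 217 TPM. Its difference of -1.81 (log2, 0.286-fold, SE 0.08, adjusted p = 3.0e-07, edgeR) passed the study's limits, and without both libraries rich in mitochondrial counts it was -1.79 (adjusted p = 1.2e-11). S100A6 was at 11.2, 29.5 and 28.8 TPM (-1.33, SE 0.17, adjusted p = 1.7e-04, edgeR; -1.27 without both libraries). S100P was at 1.51, 1.78 and 1.64 TPM (-2.33, SE 0.29, adjusted p = 1.6e-04, edgeR; -2.40 without both libraries). S100A11 was at 153, 230 and 240 TPM (-0.68, SE 0.16, adjusted p = 0.0083, edgeR; -0.85 without both libraries). S100A6, S100A11 and S100P thus also lay under every control library in DMSO, whereas S100A4 (-0.56, SE 0.23, adjusted p = 0.092, edgeR; -0.34 with adjusted p = 7.8e-04 without both libraries) and S100A13 (-0.46, SE 0.20, adjusted p = 0.11) did not pass. In this comparison 1 of the 6 members passed the study's limits against 2.84% of 15901 genes. By DESeq2 3 of 6 passed, where 1066 of 15901 genes were called against 452 by edgeR. At an adjusted p under 0.05 it was 4 of 6 against 33.7%.

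In sgEPCR cells 24 h of UM171 raised 5 of the 6 members. S100A10 went from 18.7, 56.7 and 52.8 TPM to 362, 168 and 361 TPM, 5.97-fold (log2 2.58, SE 0.08, adjusted p = 6.4e-09, edgeR; 2.48 without both libraries). S100A11 went from 153, 230 and 240 TPM to 1027, 845 and 1058 TPM, 3.99-fold (log2 2.00, SE 0.17, adjusted p = 3.4e-06, edgeR; 1.94 without both libraries). S100A6 went from 11.2, 29.5 and 28.8 TPM to 115, 37.8 and 117 TPM, 3.16-fold (log2 1.66, SE 0.17, adjusted p = 1.4e-05, edgeR; 1.78 without both libraries). The groups did not overlap for these 3 genes, and in each the lowest treated value was that of replicate 2 and the lowest vehicle value that of replicate 1. S100A6 lost its call without sgEPCR DMSO replicate 2 or 3, with changes of 1.54 to 1.85 over the 12 libraries left out in turn.

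S100A4 rose by 1.26 (SE 0.24, adjusted p = 0.0011, edgeR; 1.24 without both libraries), from 82.7, 353 and 330 TPM to 954, 278 and 908 TPM, with the groups overlapping in TPM. S100A13 rose by 1.16 (SE 0.20, adjusted p = 6.6e-04, edgeR; 1.26 without both libraries), to 10.0, 3.96 and 6.55 TPM. Both passed the study's limits when the libraries rich in mitochondrial counts were left out. S100P fell by 1.24 (SE 0.35, adjusted p = 0.012, edgeR) to 13, 10 and 7 counts. S100A9 had 2, 13 and 12 counts in sgEPCR DMSO and 2, 0 and 1 in sgEPCR UM171, with replicate 1 alike in both. Together 3 of 6 passed the study's limits against 10.3% of all genes. By DESeq2 5 of 6 passed, where 2540 of 15901 genes were called against 1642 by edgeR. At an adjusted p under 0.05 it was 6 of 6 against 52.1%. The median change was 1.46 for the 6 members and -0.01 for all genes.

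The same exposure in control cells, fitted with the same 12 libraries, gave -0.79 for S100A10 (SE 0.08), 0.06 for S100A11 (SE 0.16), -0.23 for S100A6 (SE 0.16) and -0.57 for S100A13 (SE 0.20). The difference between the responses of sgEPCR and control cells, the interaction, was 3.36 for S100A10 (SE 0.11, adjusted p = 5.2e-08, edgeR; 3.28 without both libraries), a 10.3-fold ratio between the fold changes of the 2 genotypes. It was 1.94 for S100A11 (SE 0.23, adjusted p = 7.1e-05, edgeR; 1.90 without both libraries) and 1.89 for S100A6 (SE 0.23, adjusted p = 9.3e-05, edgeR; 2.02 without both libraries). S100A10 passed the study's limits without any 1 library (3.29 to 3.40). S100A11 lost its call in 10 of 12 such fits (1.72 to 2.10), with exceptions for sgEPCR DMSO replicate 1 and sgEPCR UM171 replicate 2, and S100A6 in 11 of 12 (1.77 to 2.07), with an exception for sgEPCR UM171 replicate 2. In the fit without those libraries together, S100A10, S100A11, S100A6 and S100A13 all passed.

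The interaction was 1.72 for S100A13 (SE 0.28, adjusted p = 6.2e-04, edgeR) and 1.54 for S100P (SE 0.46, adjusted p = 0.020), where S100P fell less in sgEPCR cells than in control cells. It was 0.52 for S100A4 (SE 0.33, adjusted p = 0.23, edgeR; 0.50 with adjusted p = 3.5e-04 without both libraries), which did not pass. At the study's limits 3 of 6 members passed against 7.77% of all genes, and at an adjusted p under 0.05 it was 5 of 6 against 45.0%. DESeq2 called 4 of 6 members and 2571 of 15901 genes, and limma 0 of 6 and 29 genes, against 1236 genes by edgeR. The interaction subtracts the vehicle libraries, where S100A10, S100A11 and S100A6 were lower in sgEPCR cells, so the treated cells are also given directly. After UM171, S100A10 was 2.94-fold higher in sgEPCR than in control cells (log2 1.56, SE 0.08, adjusted p = 3.8e-07, edgeR; 1.49 without both libraries). S100A11 was 2.39-fold higher (log2 1.26, SE 0.16, adjusted p = 1.5e-04, edgeR; 1.04 without both libraries) and S100A13 2.41-fold higher (log2 1.27, SE 0.20, adjusted p = 5.2e-04, edgeR; 1.41 without both libraries). S100A6 was higher by 0.56 (SE 0.16, adjusted p = 0.018, edgeR; 0.75 without both libraries) and S100A4 differed by -0.05 (SE 0.23, adjusted p = 0.89), a value that was 0.16 without both libraries (adjusted p = 0.046, edgeR). S100P differed by -0.80 (SE 0.35, adjusted p = 0.088, edgeR) and by -1.07 without both libraries (adjusted p = 0.020). There 1 of 6 members passed the study's limits against 4.46% of all genes. By DESeq2 3 of 6 passed, where 1484 of 15901 genes were called against 709 by edgeR. At an adjusted p under 0.05 it was 4 of 6 against 43.0%.

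**Figure D4:**
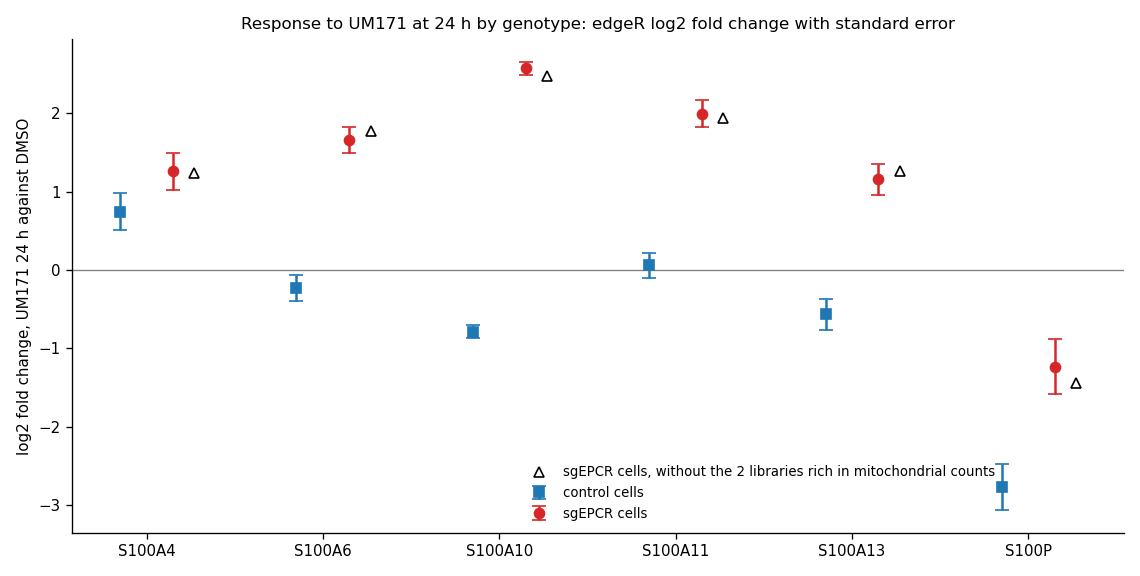
The log2 fold change of UM171 at 24 h against DMSO (y axis) for the 6 members (x axis; S100A9 left out) in control cells (blue squares) and sgEPCR cells (red circles), with standard errors from edgeR on the same 12 libraries, and in sgEPCR cells without the 2 libraries rich in mitochondrial counts (open triangles). S100A10 lies at -0.79 in control cells and at 2.58 in sgEPCR cells.

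Ordered by mean level over the 7 groups, S100A10, S100A11, S100A6 and S100A4 were all lowest in sgEPCR DMSO (42.7, 208, 23.1 and 255 TPM), without overlap with the next group. For S100A4 the next group was 72 h, and sgEPCR DMSO did overlap sgEPCR UM171. S100A10 and S100A11 had their highest means in sgEPCR UM171 (297 and 976 TPM), S100A6 at 72 h (110.3 TPM), S100A4 at 24 h (799.7 TPM), S100A13 at 6 h (8.44 TPM) and S100P at 72 h (29.2 TPM). The highest group overlapped the next for S100A10, S100A11, S100A6, S100A4 and S100A13, and stood alone for S100P. The highest and lowest means differed 34.3-fold for S100P, 6.95-fold for S100A10, 4.77-fold for S100A6, 4.70-fold for S100A11, 3.69-fold for S100A13 and 3.13-fold for S100A4. Summed over the 10 members, the level was 1220 ± 111 TPM in DMSO and 1687 ± 85.7 at 72 h (SD, n = 3), 534 ± 230 in sgEPCR DMSO and 2084 ± 650 in sgEPCR UM171.

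Of the proteins that S100 proteins bind, 17 were examined, and all 17 were tested. S100A10 works in a tetramer with annexin A2 and was compared with ANXA2 in each library. ANXA2 rose by 1.26 in control cells at 24 h (SE 0.04, adjusted p = 9.9e-14, edgeR) while S100A10 fell, and both rose in sgEPCR cells, ANXA2 by 2.22 (SE 0.08, adjusted p = 8.7e-09). The ratio of S100A10 to ANXA2 in TPM was 1.07 to 1.10 in DMSO, 0.957 to 1.01 at 6 h, 0.261 to 0.282 at 24 h, 0.375 to 0.391 at 48 h and 0.774 to 0.787 at 72 h. It was 0.340 to 0.385 in sgEPCR DMSO and 0.471 to 0.492 in sgEPCR UM171. No 2 groups overlapped in this ratio except 48 h and sgEPCR DMSO, and the libraries rich in mitochondrial counts (0.340 and 0.492) lay next to their replicates although their S100A10 levels did not.

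**Figure D5:**
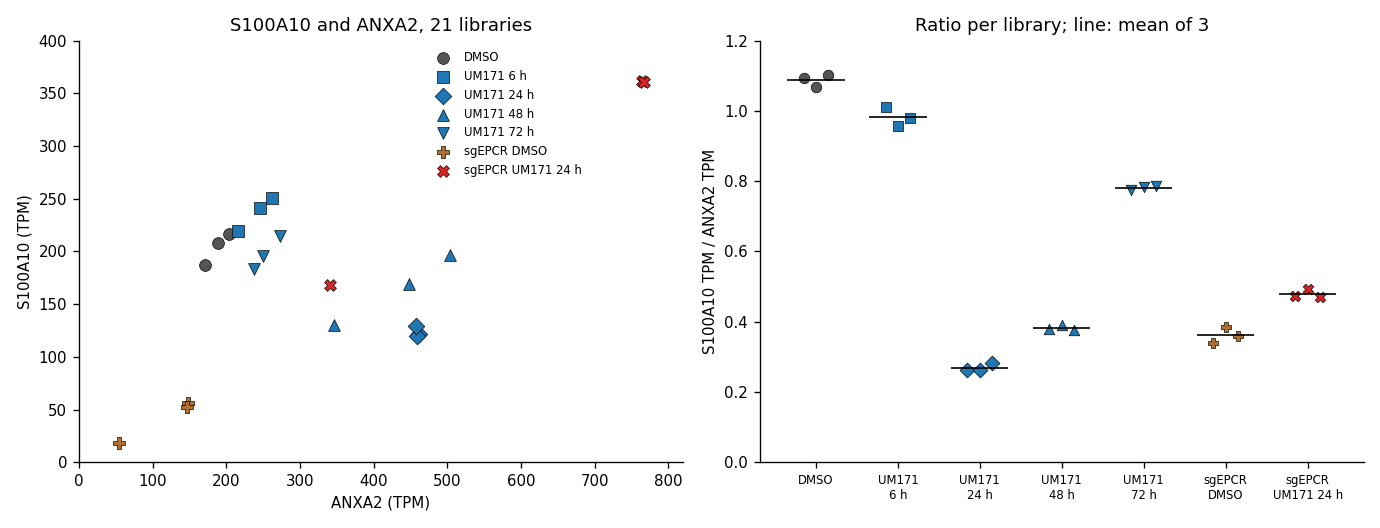
Left, S100A10 against ANXA2 in TPM for each of the 21 libraries, with a marker per group. Right, the ratio of S100A10 to ANXA2 per library (y axis, linear, from 0) in the 7 groups, with lines for the mean of 3; the ratio is 1.09 in DMSO and 0.269 at 24 h.

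AHNAK, the giant scaffold that the S100A10 and annexin A2 complex holds at the membrane, had a pattern near that of S100A10. It fell by 1.24 in control cells at 24 h (SE 0.04, adjusted p = 1.4e-13, edgeR), rose by 1.99 in sgEPCR cells (SE 0.18, adjusted p = 7.0e-06), and had an interaction of 3.22 (SE 0.26, adjusted p = 4.9e-06). ANXA1, the partner of S100A11, was at 207 ± 11.3 TPM in DMSO, 539 ± 129 at 48 h, 60.1 ± 24.2 in sgEPCR DMSO and 756 ± 250 in sgEPCR UM171 (SD, n = 3). Its interaction was 3.04 (SE 0.09, adjusted p = 2.6e-08, edgeR), and in DMSO it was lower by 1.40 in sgEPCR cells (log2 -1.40, SE 0.06, adjusted p = 3.0e-07). AHNAK and ANXA1 were the 2 of 17 partners whose interaction passed the study's limits, against 7.77% of all genes.

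Among the receptors of released S100 proteins, TLR4 was at 48.0 ± 2.65 TPM in DMSO and changed by -0.22 at 72 h (SE 0.04, adjusted p = 7.4e-05, edgeR). LY96, which encodes the MD-2 coreceptor of TLR4, went from 1.15, 0.68 and 0.69 TPM in DMSO to 54.6, 57.6 and 65.2 TPM at 72 h (log2 6.10, SE 0.17, adjusted p = 7.2e-15, edgeR), and from 1, 2 and 3 counts to 235, 195 and 319 counts in sgEPCR cells. CD36, a scavenger receptor, rose by 2.89 at 72 h (SE 0.11, adjusted p = 1.5e-13, edgeR), and LY96 and CD36 were the 2 of 17 that passed the study's limits there. AGER rose by 0.92 at 72 h (SE 0.16, adjusted p = 4.9e-05, edgeR) from 55 to 59 counts to 104 to 118. BSG, a receptor of S100A9, differed by 0.07 at 72 h (SE 0.04, adjusted p = 0.084, edgeR).

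Of the cytoskeletal partners, MYH9, the myosin heavy chain bound by S100A4, fell by 0.99 at 72 h (SE 0.05, adjusted p = 2.2e-12, edgeR). EZR, the ezrin bound by S100P, rose by 0.87 at 72 h (SE 0.05, adjusted p = 2.4e-11, edgeR) and IQGAP1 by 0.54 (SE 0.04, adjusted p = 2.0e-09). S100PBP, which binds S100P in the nucleus, rose by 0.68 at 72 h (SE 0.06, adjusted p = 5.7e-09, edgeR). CACYBP, the calcyclin-binding protein, and SUGT1 fell by 0.22 (SE 0.04, adjusted p = 1.5e-04, edgeR) and by 0.48 (SE 0.04, adjusted p = 2.8e-08) there. The annexins ANXA5, ANXA6 and ANXA11 changed by -0.31, 0.11 and -0.13 at 72 h. By count, 5 of 17 partners passed the study's limits at 24 h (3 higher, 2 lower) against 13.7% of all genes, 6 at 48 h (5 higher, 1 lower) against 16.4%, 2 at 72 h (both higher) against 20.8%, and 7 in sgEPCR cells (all higher) against 10.3%.

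Beyond the members, 11 further S100 genes were looked up, of which 3 were tested. S100Z had 8, 13 and 12 counts in DMSO and 74, 90 and 69 at 72 h. S100A2 had 0, 4 and 3 counts in sgEPCR DMSO and 65, 51 and 96 in sgEPCR UM171 (log2 4.70, SE 0.47, adjusted p = 1.1e-05, edgeR), and S100A5 had 0, 0 and 2 against 21, 23 and 27. S100Z and S100A5 passed the filter on low counts through UM171 groups, where they were higher, so their counts are given as a description with no test. Of the others, S100A7, S100A7A, S100A7L2 and S100G had 0 counts in all 21 libraries, and S100A1, S100A3, S100A14 and S100A16 at most 9 in any. S100A3 lies within the span of S100A4 on the same strand, and S100A1 overlaps S100A13 on the other strand. The library kit marks strand, but the strand setting of the counting is not given in the sources used here, so counts of these pairs could be shared. The 8 pseudogenes of S100A11 had 0 counts in every library.

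Among 10 transcription factors of the myeloid lineage, 3 passed the study's limits at 72 h, against 20.8% of all genes. EGR1 rose by 3.68 (SE 0.15, adjusted p = 5.7e-13, edgeR), CEBPB, the C/EBP factor of inflammation and monocytes, by 1.90 (SE 0.11, adjusted p = 5.8e-11), and SPI1, which encodes PU.1, fell by 1.00 (SE 0.07, adjusted p = 1.5e-09). For the interaction 6 of the 10 had an adjusted p under 0.05, against 45.0% of all genes. Of 16 genes of myeloid maturation 13 were tested and 9 passed the study's limits at 72 h (8 higher, 1 lower) against 20.8% of all genes, led by ITGAM, the integrin chain CD11b (3.02, SE 0.05, adjusted p = 4.0e-17, edgeR), and VCAN (2.24, SE 0.06, adjusted p = 2.7e-15). CD14, ELANE and PRTN3 were not tested and averaged under 0.3 TPM in each group. For the interaction 3 of 13 passed, against 7.77% of all genes, with ANPEP at 5.53 (SE 0.69, adjusted p = 9.3e-05, edgeR) and MPO, the myeloperoxidase of granules, at -4.38 (SE 0.16, adjusted p = 5.9e-08). The third was FCGR1A, the high-affinity IgG receptor, at 2.06 (SE 0.16, adjusted p = 4.7e-06), named after its value was seen. ANPEP stayed under 1 TPM on average in each group, with 0, 0 and 1 counts in sgEPCR DMSO and 67, 28 and 71 in sgEPCR UM171.

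The wider EF-hand proteins, calmodulins and reticulum calcium binders among them, were counted alike. Of 15 tested, 1 passed the study's limits at 24 h and 48 h (CALU in both), against 13.7% and 16.4% of all genes, and 2 at 72 h against 20.8% (CALU at 1.28, SE 0.04, adjusted p = 1.1e-14, edgeR, and EFHD2 at -1.16, SE 0.06, adjusted p = 6.4e-12). In sgEPCR cells 8 of 15 had an adjusted p under 0.05 against 52.1% of all genes, and for the interaction 6 of 15 against 45.0%.

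For each member, 1 of the 3 genes whose log2(TPM + 1) followed it most closely over the 21 libraries, among 13564 genes, is given as a description, since the libraries share groups and the 2 libraries rich in mitochondrial counts. Pearson's r was 0.977 between S100A4 and CMTM6, 0.975 between S100A6 and CAPG, 0.970 between S100A10 and DOCK11, 0.974 between S100A11 and MVP, 0.931 between S100A13 and DUSP18, and 0.894 between S100P and NME8. Another for S100P was AZU1, a granule protein gene, at 0.867. Of the 18 genes that this rule picks (3 for each of 6 members), 5 were also picked with TMM log2 CPM and 1 was also picked over the 15 control libraries.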

How the data were processed

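Poly(A) RNA of 21 OCI-AML5 libraries was sequenced with a stranded kit. The submitters' processing notes name CASAVA 1.8.2, Trimmomatic 0.35, STAR 2.5.1b, RSEM 1.2.28 and GRCh38, whereas the study's methods name kallisto and sleuth. Per gene, the values deposited are expected counts from RSEM, not normalized, and TPM, also deposited, scaled by effective length and to the same total per library. The 45 Y pseudoautosomal entries were summed with their X counterparts, and 57392 of 58174 identifiers had a symbol.

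After rounding, the counts went into edgeR 4.0.16 under R 4.3.3 (filterByExpr, TMM, glmQLFit and glmQLFTest, no replicate term, Benjamini-Hochberg adjustment over all genes tested). The 15 control libraries (16575 genes) gave the time course and 12 libraries (15901 genes) gave the sgEPCR comparisons. Standard errors came from the log2 change and the F statistic (size of the change over root F). Levels and ratios are in TPM. DESeq2 1.42.0 and limma 3.58.1 on log2(TPM + 1) were alternatives. On simulated data (200 genes changed, 16130 genes at 72 h and 15478 for the interaction) each tool recovered 200 with 0 false calls. Only genes of mean count over 200 were changed, by 2 on the log2 scale, no outlying library was simulated, and limma ran there on CPM. The simulation therefore checks the code and cannot speak for genes of few counts, smaller changes or the libraries rich in mitochondrial counts. Figures used Python 3.11.15 and matplotlib 3.10.9. Coordinates are from GENCODE and promoters from RefSeq, with entries for 9 of 10 members (not S100B).

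Members and lists were chosen with earlier results of these data known. Named by rule were all members, the further S100 genes and the partners, in other lists at most 4 genes past the limits at 72 h or for the interaction, and per member of at least 1 TPM the 3 genes with the highest r. Some of the genes these rules pick are not reported here.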

Additional observations from a re-analysis of the deposited data

Results flagged for a closer look

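Differences between the UM171 responses of sgEPCR and control cells at 24 h, tested as an interaction with edgeR, passed the study's limits for 3 of 6 members. They were 3.36 (log2) for S100A10, 1.94 for S100A11 and 1.89 for S100A6, each higher in sgEPCR cells. Of all genes 7.77% passed. S100A11 lost its call in 10 of 12 fits with 1 library left out and S100A6 in 11 of 12. Limma and the replicate block called 0 members, and 29 and 0 of 15901 genes. Of the 17 partners, AHNAK (3.22) and ANXA1 (3.04) passed as well. Of the 13 genes tested from the myeloid maturation list, ANPEP (5.53), FCGR1A (2.06) and MPO (-4.38) passed. ANPEP had 0, 0 and 1 counts in sgEPCR DMSO. Culture time and genotype cannot be told apart in the DMSO libraries that enter each difference, and the control arm sets UM171 at 24 h against DMSO labelled 72 h. No group had enough libraries for a check of single outlying values.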

How the results depend on the processing

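The calls of S100P in the time course held under each alternative run. Those of S100A10 in the sgEPCR comparisons held too, except with limma in all 4, with the replicate block in 3 and with total count scaling between genotypes in UM171. The counts in this part cover 7 members with S100A9 unless stated, which entered through the groups where it was higher and adds 1 at 48 h. Values of S100A9 here describe the processing and are not read as results. Counts of members past the study's limits ranged over the left-out libraries from 0 to 0 at 6 h, 1 to 1 at 24 h, 1 to 2 at 48 h, 1 to 1 at 72 h, 1 to 2 from 6 to 24 h, 0 to 0 from 24 to 48 h, 1 to 1 from 48 to 72 h, 2 to 3 in sgEPCR cells, 1 to 3 between genotypes in DMSO, 1 to 2 in UM171 and 1 to 3 for the interaction. For the 6 members without S100A9, an adjusted p under 0.05 at any fold gave 1, 5, 6 and 3 at 6, 24, 48 and 72 h. It gave 5, 4 and 6 for the steps, and 6, 4, 4 and 5 for the sgEPCR comparisons in that order. The shares of all genes are given with these counts above. Without a filter on low counts S100A8 is counted as well. There were then 2 at 24 h, 3 at 72 h, 1 from 6 to 24 h, 3 between genotypes in DMSO and 2 in UM171, and at 48 h S100P, S100A8 and S100A9 passed. Over all genes that run called 2746, 3188, 3938 and 2064 of 30677 at 24 h, at 48 h, at 72 h and from 6 to 24 h. Between genotypes it called 540 and 837 of 29884. With at least 10 counts in every library there was 1 at 48 h, since S100A9 was then not tested, and 2120 of 13388 genes were called. All 21 libraries in a single fit gave 1 from 6 to 24 h, where it called 1245 of 16786 genes against 1664 of 16575 in the main fit. It gave 5, 3 and 3 for the first 3 sgEPCR comparisons, as did DESeq2 (5, 3 and 3) and the fit without both libraries rich in mitochondrial counts (5, 3 and 3, and 4 for the interaction). Calls over all genes rose as well. In those 3 comparisons the main fit called 1642, 452 and 709 of 15901 genes, and 1236 for the interaction. The single fit called 2509, 987 and 1364 of 16786, and DESeq2 2540, 1066 and 1484 of 15901. Without both libraries the calls were 2567, 1064 and 1615 of 16360, and 3120 for the interaction. Limma gave 3 at 48 h and 1 from 6 to 24 h, where it called 1638 and 896 of 16575 genes. For the sgEPCR comparisons it gave 1, 0, 0 and 0, where it called 270, 12, 58 and 29 of 15901 genes. Upper quartile scaling gave 2 between genotypes in UM171, where it called 721 of 15901 genes. The cause was not tested.

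Same-numbered libraries did not deviate together in the time course (r from -0.06 to 0.05), which gave no sign that the numbers pair them. In sgEPCR cells r was -0.56, -0.56 and 0.41, and it was 0.66 between the libraries rich in mitochondrial counts, which carry different numbers. As these libraries weigh on every value there, the check cannot say whether the numbers pair the sgEPCR libraries. The replicate block gave 1, 0, 0 and 0 members in the sgEPCR comparisons (interaction of S100A10 3.36, adjusted p = 2.9e-04, edgeR), where it called 114, 0, 0 and 0 of 15901 genes. In the time course it gave the same counts of members as without it.

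Directions that reversed belonged to changes under the limits. At 6 h S100A4 (-0.06) was 0.11 with limma, 0.12 with total count and 0.037 with upper quartile scaling, and -0.16 to 0.0052 over left-out libraries. S100A6 (-0.02) was 0.030 with at least 10 counts, 0.15 with limma, 0.16 with total count and 0.076 with upper quartile scaling, and -0.094 to 0.054 over left-out libraries. Without a filter S100A10 (0.04) was -0.0089 and S100A11 (0.04) was -0.0054, with ranges of -0.0054 to 0.078 and -0.0023 to 0.059, and S100P (-0.24) was 0.089 with limma. From 6 to 24 h S100A11 (0.0095) was -0.015 with at least 10 counts, -0.12 with limma, -0.14 with total count and -0.11 with upper quartile scaling, with a range of -0.0047 to 0.066, and S100A9 ranged from -0.79 to 0.017. S100A13 at 72 h ranged from -0.20 to 0.056 and S100P from 24 to 48 h from -0.58 to 0.24. S100A4 between genotypes in UM171 (-0.05) was 0.029 with upper quartile scaling and 0.16 without both libraries, and ranged from -0.18 to 0.16. The interaction of S100A9 (-1.74) was 0.14 with limma. Total count scaling moved the median of all genes at 6 h from 0.02 to 0.20 and between genotypes in DMSO from 0.00028 to -0.25. Over the single changes of members, 1664 kept their direction and side of the limits, 33 passed them anew, 51 lost them and 29 reversed. Genes with under 10 counts in most libraries (S100A8, S100A9, S100A12, S100B) are limited by depth.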
